A study of Rattus with 4 samples.

Results

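The genes described here are the long noncoding RNA (lncRNA) genes that received enough reads to be followed in an RNA immunoprecipitation experiment on the nuclear protein NONO. They are the rows of the deposited count table typed as lncRNA with at least 10 reads summed over the 4 libraries, which were 135 of 1157 lncRNA rows and of 13731 listed genes. Of these 135, 131 carry a placeholder symbol (LOC or RGD followed by a number) and only 4 a gene name, Pvt1, Tug1, Lnc215 and Lppos. The genes were thus chosen by measured reads, the sum of input and NONO IP, and a gene with almost no input reads could enter through its NONO IP reads alone. NONO IP reads alone reached the limit for 126 of the 135, and input reads alone for 13.

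An lncRNA is a transcript without a long reading frame, and many lncRNAs stay in the nucleus near the site where they are made. NONO binds RNA and DNA in the nucleus and is a core protein of paraspeckles, bodies assembled on the lncRNA Neat1. Precipitating NONO and sequencing the RNA that comes with it (RIP-seq) gives, for each lncRNA, a level in the precipitate (NONO IP) to set beside its level in the input RNA.

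The 2 input libraries were made without antibody from rat cells labelled as transfected with an empty vector, and the 2 NONO IP libraries with an anti-NONO antibody from cells labelled as transfected with NONO siRNA. Precipitation and knockdown therefore cannot be told apart from the labels, and no library with a control antibody was analysed here. The growth protocol names a rat cardiac fibroblast line, while H9C2 in the titles is a myoblast line of rat heart origin. Of 12 fibroblast markers 10 were in the table, with 7.81% of the counts from the inputs and 7.32% of those from the NONO IP, whereas 9 cardiomyocyte markers held 124 input and 165 NONO IP reads. The 4 smooth muscle markers held 1050 and 709 reads (0.215% and 0.130% of counts), 3 skeletal myoblast markers 23 and 7, 2 endothelial markers 2 and 3, and 3 leukocyte markers 5 and 1; their part in the lncRNA results was not tested. Separate cultures are not mentioned for the replicates, so a p-value here reflects no more than how far these 4 libraries spread.

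The targeted gene, Nono, had 21 and 9 input reads and fell to 3 and 3 in the libraries labelled as transfected with its siRNA (log2 fold change −2.70, SE 0.60, edgeR adjusted p = 0.00406). Gene counts came to 249548 and 238776 for the inputs, against 279410 and 264059 for the NONO IP, so 3 reads stand for between 10.7 and 12.6 CPM, the count brought to a fixed library size. The deposited RPKM values (reads per kilobase, scaled by library) rest on a larger total, of 382018 and 368507 reads for the inputs, against 935544 and 848500 for the NONO IP. Gene counts were 65.3% and 64.8% of that total for the inputs, against 29.9% and 31.1% for the NONO IP, so the scales differ. Changes below are on counts with TMM scaling, on which the median tested gene lay at a log2 fold change of 0.05. That median moved to 0.33 with library totals and to −0.52 and −0.71 on the RPKM scales with pseudocounts of 1 and 0.1, and higher genes were 60.2%, 73.6%, 21.4% and 21.6% of all calls in the same order.

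The 135 lncRNA genes together held 538 and 513 input reads, against 3162 and 2846 from the NONO IP. That was 0.215% ± 0.000526 of gene counts for the inputs, against 1.10% ± 0.0381 for the NONO IP (SD, n = 2), a 5.13-fold difference. Each NONO IP library was thus above each input. As a share of the larger RPKM total the figures were 0.140% ± 0.00115 and 0.337% ± 0.00182, a 2.40-fold difference, so the direction was the same on both totals but the size was not. With 2 libraries against 2, an exact two-sided permutation test cannot give a p below 0.33, and none is claimed for these shares.

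Gene by gene, 101 of the 135 were higher in the NONO IP and 5 were lower at an edgeR adjusted p under 0.05, and 29 did not pass. Over all 6401 genes with at least 10 reads, 17% were higher and 11.2% lower. The fitted log2 fold change had a median of 3.88 over the 135 genes, or 2.58 if each of the 44 genes without input reads is given the fold that 3 input reads would leave. Both figures rest on how the genes were chosen and are a description only. On the scaled level the NONO IP lay wholly above the inputs for 123 genes and wholly below for 5, against 34.9% and 29.7% of all tested genes. With the replicate number as a block, which leaves 1 residual degree of freedom, 6 of the 135 were higher and 1 lower. Over all tested genes 51 were higher and 39 lower in that fit. The number of higher genes was 30 with NONO IP replicate 1 left out, 37 with replicate 2 left out and 47 with the DESeq2 Wald test, which gave no adjusted p to 72 of the genes. The number of lower genes was 2, 3 and 3 in these fits.

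**Figure D1:**
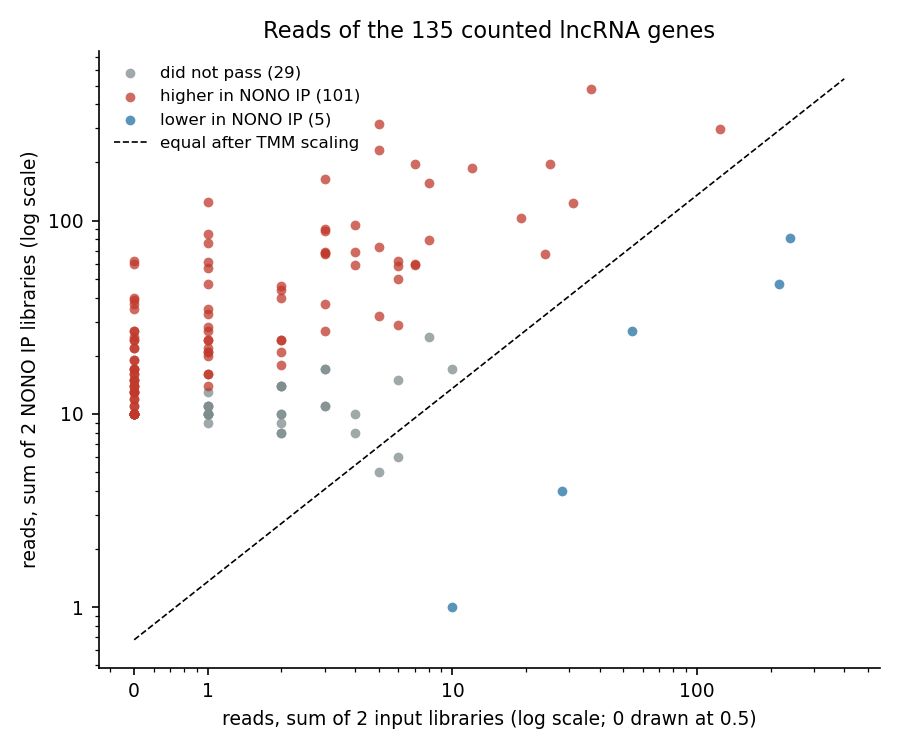
Reads of each of the 135 lncRNA genes, summed over the 2 inputs (horizontal, log scale, 0 drawn at 0.5) and over the 2 NONO IP libraries (vertical, log scale), coloured by the edgeR call; the dashed line marks equal levels after TMM scaling. The 44 genes in the column at 0 have no input read, and the 5 genes in blue lie below the line.

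Among the lncRNAs with a name, Pvt1, which lies next to the oncogene Myc on chromosome 7, rose. Its reads were 4 and 3 without precipitation and 33 and 27 with it, so the groups were well apart. The scaled level went from 15.8 ± 2.91 to 99.97 ± 12.3 CPM (SD, n = 2; log2 fold change 2.62, SE 0.44, edgeR adjusted p = 0.000506). Pvt1 lost its call without NONO IP replicate 1 (2.49, adjusted p = 0.0505), and its change was 1.66 on the log2(RPKM + 0.1) scale (adjusted p = 0.0773) and 0.86 on the log2(RPKM + 1) scale (adjusted p = 0.0527).

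Tug1, a conserved lncRNA of chromosome 14 found in nucleus and cytoplasm, went the other way. It had 3 and 7 input reads but only 1 and 0 after precipitation, a ratio of 0.0738 (exact conditional 95% interval 0.0017 to 0.519, for counting error only; log2 fold change −3.43, SE 1.07, edgeR adjusted p = 0.0283). With so few reads the call did not survive leaving out Input replicate 2 (adjusted p = 0.224), NONO IP replicate 1 (0.121) or NONO IP replicate 2 (0.181). Tug1 was the lower gene of ordinary length, at 4500 bases.

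Lppos, an antisense lncRNA inside the gene Lpp on chromosome 11, had no input read and 8 and 9 NONO IP reads (edgeR adjusted p = 0.00569). That is 4.18-fold higher against a floor of 3 reads over the inputs, and the exact conditional 95% interval starts at 3.05. Its call, too, needed both NONO IP replicates (adjusted p = 0.0885 without replicate 1 and 0.0797 without replicate 2). Lnc215, on chromosome 8, had 4 and 2 input reads, against 10 and 5 in the NONO IP. Its scaled levels overlapped between the groups and it did not pass (log2 fold change 0.86, SE 0.67, adjusted p = 0.375). RGD1566401, on chromosome 6, is described in the table as similar to GTL2, an older name of the imprinted lncRNA Meg3, and was picked out after its values were seen. Its reads were 2 and 6 against 15 and 10, without overlap on the scaled level, but it did not pass (1.18, SE 0.58, adjusted p = 0.149).

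Of the well-known lncRNAs listed for this report, few were counted. Of 12 nuclear and chromatin lncRNAs, 3 were found by name and 2 of them, Tug1 and Pvt1, reached 10 reads, with 1 higher and 1 lower in the NONO IP. Neat1, Malat1 and Xist, also on that list, were not found by name among the lncRNA rows. Of 21 hosts of small nucleolar RNAs only Gas5 was found, with 3 input and 4 NONO IP reads, of 13 microRNA hosts only Mir155hg, with 2 NONO IP reads, and of 9 imprinted lncRNAs only H19, with 5 NONO IP reads. Lists of 12 heart and vessel lncRNAs and of 8 HOX lncRNAs had no match by name. Genes listed under a placeholder symbol are missed by a match on names.

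The gene with the most reads was LOC120102485 on chromosome 4. It had 18 and 19 input reads, against 257 and 223 in the NONO IP, and its scaled level rose from 83.7 ± 4.69 to 800.0 ± 65.7 CPM (log2 fold change 3.25, SE 0.19, edgeR adjusted p = 2.5e-08). With an offset for gene length the change was 1.16 (adjusted p = 0.00176), and on the log2(RPKM + 1) scale 1.56 (adjusted p = 0.0193). At 63475 bases it was also among the longest, so that its level per kilobase was only 1.32 CPM in the inputs and 12.6 CPM in the NONO IP. Alone it took 75.2% of the NONO IP reads of the 9 lncRNA genes on its chromosome.

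LOC120097382, on chromosome 1, showed a sharper contrast, with 2 and 3 input reads against 159 and 159 in the NONO IP. Its ratio was 46.9 (exact conditional 95% interval 19.9 to 146), and its level per kilobase, 58.4 CPM in the NONO IP, was well above that of LOC120102485. On chromosome 15, LOC120096952 went up from 4 and 1 to 131 and 100 reads (5.03, SE 0.38, edgeR adjusted p = 5.1e-07). LOC120093050, on chromosome 19, rose from 1 and 2 to 82 and 83 (5.25, SE 0.40, adjusted p = 5.66e-07). For all of these the NONO IP libraries were close to each other and far from both inputs. LOC120097118 and LOC120097195, also on chromosome 1, had 3 and 4 against 108 and 88 reads and 1 and 7 against 81 and 76 reads (4.33 and 3.82). The change of LOC120097195 ran from 3.04 without Input replicate 1 to 5.74 without Input replicate 2, and its call ended on the log2(RPKM + 0.1) scale (3.33, adjusted p = 0.0596). LOC120098203, on chromosome 18, had 5 and 7 against 98 and 89 (3.50, SE 0.29), and LOC120102881, on chromosome 5, had 2 and 2 against 47 and 48 (4.06, SE 0.43). The length offset put LOC120098203 at 1.82, LOC120096952 at 3.80, LOC120102881 at 3.35 and LOC120093050 at 4.59, each still called.

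**Figure D2:**
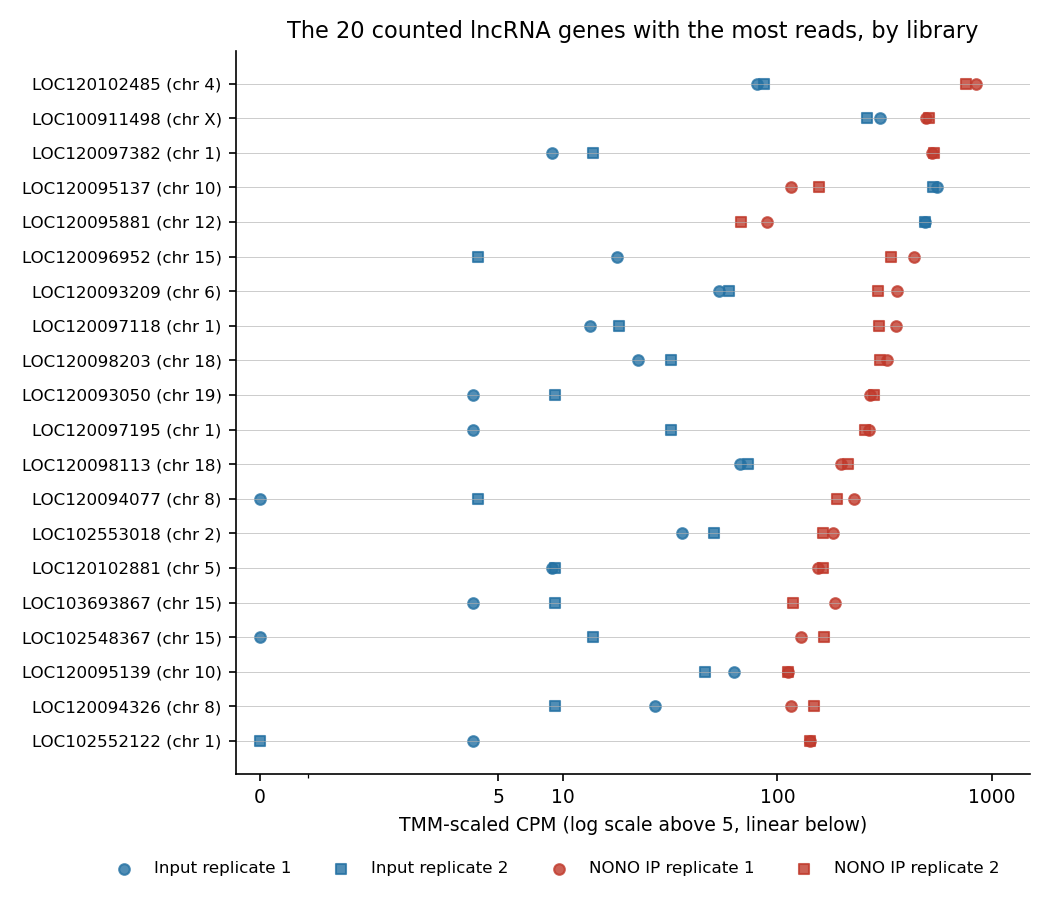
TMM-scaled CPM (horizontal, log scale above 5 and linear below) of the 20 lncRNA genes with the most reads, one point per library. The NONO IP libraries (red) lie to the right of the inputs (blue) except for LOC120095137 and LOC120095881, where the order is the reverse.

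Sorting the genes by input reads shows which of them entered through the NONO IP. All 122 genes with under 10 input reads needed NONO IP reads to be included, the 44 with no input read most of all. All 44 were called higher, as were all 125 tested genes of any type with no input read (100%), so nothing about lncRNAs can be read from that count. For these 44 the fold was bounded at between 2.46 and 15.3 (median bound 3.69). The highest bound was that of LOC120097421 on chromosome 16, with 38 and 24 NONO IP reads. It was followed by LOC120103027 on chromosome 5, with 28 and 32 and at least 14.8-fold higher, and LOC120095272 on chromosome 10, with 23 and 17 and at least 9.84-fold higher. LOC120095272 lost its call without NONO IP replicate 1 (adjusted p = 0.0578).

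With 1 to 3 input reads, 34 of 56 lncRNA genes were higher, against 36.4% of all genes in that range, and none was lower. With 4 to 9 input reads, where NONO IP reads were still needed to reach the limit, 16 of 22 lncRNA genes were higher and none lower. In that range 11.9% of all genes were higher and 0.466% lower, and the median log2 fold change was 2.71 for the lncRNA genes against 0.23 for all genes. LOC120094077 on chromosome 8 stood out in the group with few input reads. Its reads were 0 and 1 against 69 and 56, a ratio of 92.2 with a wide interval of 16.3 to 3672.

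**Figure D3:**
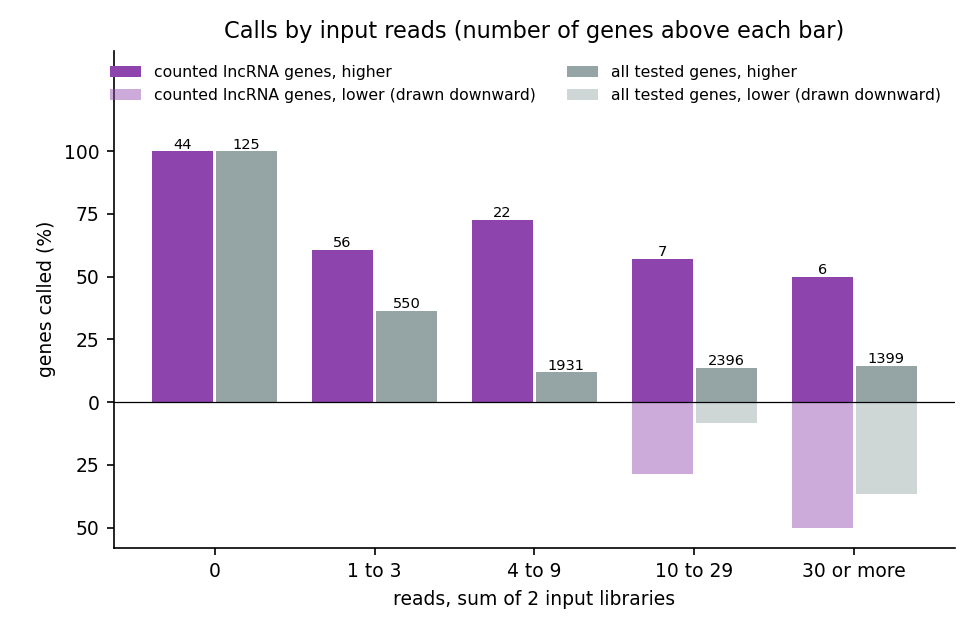
Percent of genes called higher (upward bars) and lower (downward bars) in the NONO IP by edgeR, by input reads summed over the 2 inputs, for the counted lncRNA genes and for all tested genes; the number of genes stands above each bar. With no input read both sets reach 100%, and with 4 to 9 input reads, where genes of both sets also needed NONO IP reads to be tested, 16 of 22 lncRNA genes were higher against 11.9% of all genes.

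The 13 genes with at least 10 input reads needed no NONO IP read to be included, and they were split. Of these 13, 7 were higher and 5 lower, while 14% of all 3795 genes with at least 10 input reads were higher and 18.7% lower. With 10 to 29 input reads, 4 of 7 were higher and 2 lower, against 13.6% and 8.18% of all genes in that range. With 30 or more, 3 of 6 were higher and 3 lower, against 14.5% and 36.6%. The gene that did not pass was LOC120098827, on chromosome 20, with 4 and 6 reads against 8 and 9. With the replicate number as a block, 2 of the 13 were higher and 1 lower. The number of higher genes fell to 3 on both RPKM scales, where the median tested gene lay below 0, and to 4 without NONO IP replicate 1. The number of lower genes fell to 2 and 3 with NONO IP replicate 1 or 2 left out and to 3 with the DESeq2 Wald test.

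The higher genes of this kind included LOC120102485 and LOC120098203, described above. LOC120093209, on chromosome 6, had 12 and 13 reads against 109 and 87 (log2 fold change 2.52, SE 0.25, edgeR adjusted p = 6.28e-06). At 911 bases it is far shorter than those 2, and the order of the 3 turned with the length offset, where it was at 3.22. On the log2(RPKM + 1) scale it was at 1.69 against 1.56 for LOC120102485 and 1.36 for LOC120098203, an order that rests on the pseudocount. The RPKM of LOC120102485 went from 0.74 and 0.81 to 4.33 and 4.14, and that of LOC120098203 from 0.32 and 0.47 to 2.57 and 2.58. That of LOC120093209 went from 34.5 and 38.7 to 127.9 and 112.6, a smaller fold than in those 2. LOC102553018, on chromosome 2, had 8 and 11 against 55 and 48 (1.99, SE 0.31), a call that ended without NONO IP replicate 1 (adjusted p = 0.0505) and on the RPKM scales (adjusted p = 0.0534 and 0.0625). LOC120098113, on chromosome 18, had 15 and 16 against 60 and 63 (1.54, SE 0.26). On the RPKM scales it lay at 0.67 and 0.73, with adjusted p = 0.0951 and 0.0955. LOC120095139, on chromosome 10, had 14 and 10 against 34 and 33 (1.04, SE 0.32, adjusted p = 0.0253). Its call ended without Input replicate 2 (adjusted p = 0.141), NONO IP replicate 1 (0.140) or NONO IP replicate 2 (0.121), with the DESeq2 Wald test (0.230) and on the RPKM scales (0.504 and 0.482).

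LOC100911498, on chromosome X, was the most abundant of the higher genes in the input, with 67 and 57 reads against 149 and 150. Its scaled level went from 280.0 ± 27.0 to 498.8 ± 11.4 CPM (log2 fold change 0.83, SE 0.15, edgeR adjusted p = 0.00125). This change was 0.08 with an offset for gene length (adjusted p = 0.762) and 0.02 and 0.03 on the RPKM scales (adjusted p = 0.942 and 0.937). It missed the threshold with NONO IP replicate 1 (0.0564) or 2 (0.0533) left out.

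Of the 5 lower genes, 4 were among the shortest. The length of a gene follows from its count and its RPKM, and 59 short noncoding RNA genes of known RefSeq length put it in bases. The counted lncRNA genes ran from 143 to 84886 bases with a median of 6620, against 4177.5 for the protein-coding genes tested, and 37.0% of them were over 10000 bases against 11.0% of the latter. For the 68 lncRNA genes with a RefSeq symbol this length had a median of 49.0% of the RefSeq span, and for 16 it was at least 90%. Whether it is the length of a spliced transcript was not tested. In the long class, above 5666 bases, 65 of 79 lncRNA genes were higher and none lower, against 26.7% and 8.72% of all long genes. In the middle class 15 of 23 were higher and 1, Tug1, lower, against 13.6% and 7.92% of all genes there. In the short class, up to 2994 bases, 21 of 33 were higher and 4 lower, against 10.5% and 17%. The long lncRNA genes held 371 input and 4546 NONO IP reads. As 122 of the 135 genes needed NONO IP reads to be included, the calls by length rest in part on that choice. They are a description only, and the shares of all genes beside them cover every level of input reads.

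All 4 lower genes of the short class were shorter than 300 bases, although the table types them as long noncoding RNA. LOC120095881, on chromosome 12, is 154 bases long and had 109 and 107 input reads against 27 and 20 in the NONO IP. Its level fell from 488 ± 2.31 to 78.3 ± 15.1 CPM (log2 fold change −2.63, SE 0.20, edgeR adjusted p = 5.88e-07). LOC120095137, on chromosome 10 and 262 bases long, had 124 and 116 input reads against 35 and 46 and fell as well (−2.00, SE 0.18, adjusted p = 2.76e-06). Both were the most abundant of all 135 per kilobase in the inputs, LOC120095881 at 3170.2 CPM per kilobase.

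The other two lower genes share a length of 194 bases. LOC120095551, on chromosome 11, had 13 and 15 input reads against 2 and 2 (−3.16, SE 0.57, edgeR adjusted p = 0.00103). That call ended when either NONO IP replicate was left out (adjusted p = 0.0589 without replicate 1 and 0.0527 without replicate 2). LOC120102809, on chromosome 5, had 26 and 28 input reads against 6 and 21, so its NONO IP libraries differed widely from each other. Its call (−1.43, SE 0.41, adjusted p = 0.0195) ended without NONO IP replicate 1, where the change was −0.78 (adjusted p = 0.180), while without NONO IP replicate 2 it was −2.60 (adjusted p = 0.0348). It also ended with the DESeq2 Wald test (−1.44, adjusted p = 0.0988). On the log2(RPKM + 0.1) scale it was −2.51 (adjusted p = 0.0566). LOC120093610, on chromosome 7, also has 194 bases. It had 0 and 6 against 3 and 3 reads and did not pass. The equal lengths were noticed after the values were seen, and whether the 3 genes are copies that share reads was not tested.

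The shortest genes went both ways. Of the 9 lncRNA genes under 300 bases, 4 were higher, 4 lower and 1 did not pass, while 60.5% of all 124 tested genes under 300 bases were higher and 8.87% lower. The 4 higher ones, named after their values were seen, had few or no input reads. LOC120096003, on chromosome 12 and 152 bases long, went up from 3 and 3 to 33 and 29 reads (2.89, SE 0.44, edgeR adjusted p = 0.000264). LOC120100883, of 143 bases on chromosome 2, had no input read against 13 and 14, LOC120097895, of 176 bases on chromosome 17, none against 7 and 6, and LOC120100567, of 186 bases on chromosome 2, none against 7 and 5.

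**Figure D4:**
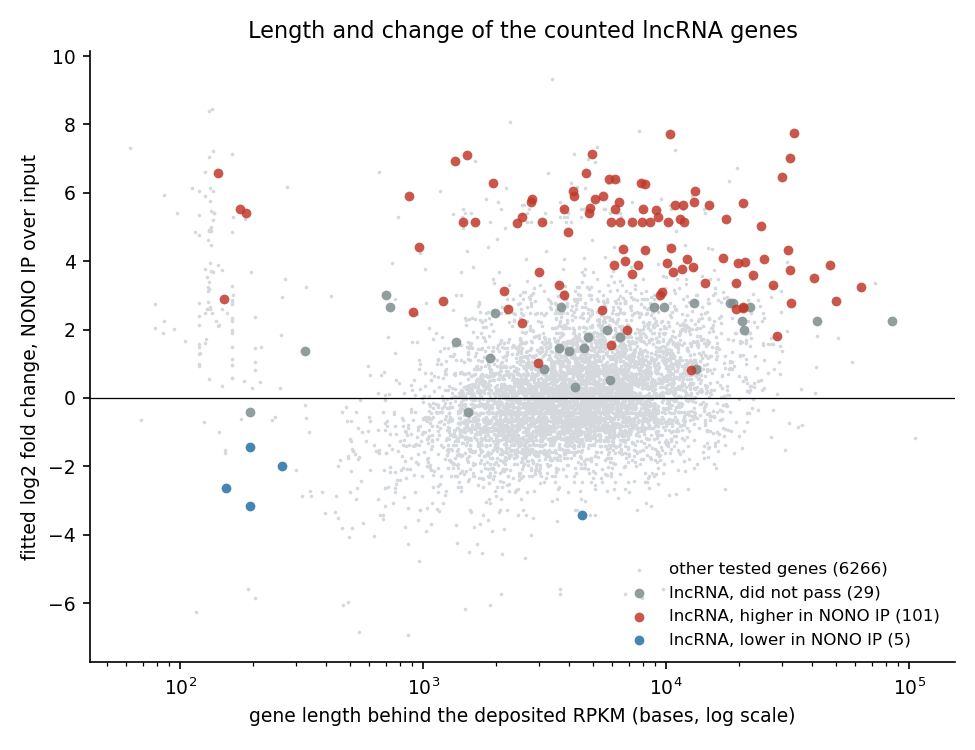
Fitted log2 fold change of NONO IP over input (vertical) against gene length in bases (horizontal, log scale), with the 135 lncRNA genes coloured by edgeR call over the other tested genes in grey. The lower genes cluster at the left, under 300 bases, except Tug1 at 4500 bases; fitted values of genes without input reads depend on the fit's prior count.

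Per kilobase the lncRNA genes were thin in the input. Their median level was 0.319 CPM per kilobase in the inputs and 6.26 in the NONO IP, against 7.29 and 7.59 for protein-coding genes. Of the 135 genes, 122 needed NONO IP reads to be included and 44 had no input read. The medians therefore rest on how the genes were chosen and are a description only. LOC102555254, at 84886 bases the longest, had 2 and 0 reads against 4 and 10 and did not pass (2.25, SE 0.98, edgeR adjusted p = 0.106).

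The genes lay on 21 chromosomes, with 2 to 13 on each. Their summed level was higher in the NONO IP on 20 of the 21, and the fold between group means ran from 0.712 to 41.7 with a median of 8.50. As 122 of the genes needed NONO IP reads to be included, the folds and calls by chromosome rest in part on that choice. They are a description only, and the shares of all tested genes beside them cover every level of input reads. Chromosome 12 was the exception, at 522 ± 13.1 CPM for the inputs, against 372 ± 9.79 for the NONO IP (SD, n = 2). LOC120095881 held 216 of the input reads there, and of the 7 lncRNA genes 5 were higher and 1 lower, against 16.5% and 9.64% of all tested genes on that chromosome. Chromosome 10, with 13 genes of which 9 were higher and 1 lower (16.4% and 11.5% of all tested genes there), showed only a 1.27-fold difference, and LOC120095137 alone held 240 of its input reads.

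Chromosome 1 held 11 of the genes, of which 10 were higher (15.6% of all tested genes there). Their summed level went from 70.2 ± 17.2 to 1546 ± 49.9 CPM, or 22.01-fold, but they held only 13 and 18 input reads. Chromosome 15, with 7 genes for 167 tested genes, was the densest at 4.19 per 100 tested genes. Its sum was 24.9-fold higher in the NONO IP, over 7 and 8 input reads. On chromosome 5, 10 of 13 genes were higher and 1 lower (14.6% and 10.8% of all tested genes there), for a 3.998-fold difference. On chromosome 4, 8 of 9 were higher (20.5% of all tested genes there). Chromosome 17 showed the highest fold, 41.7, but its 3 genes had 1 and 0 input reads. The lowest folds after those of chromosomes 12 and 10 were on X and 20, each with 2 genes, at 1.80. As a description, the median change of the lncRNA genes was above that of all tested genes on each of the 21 chromosomes, and the latter ran between −0.17 on X and 0.34 on chromosome 17.

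A good part of the lncRNA genes that could be placed lay inside protein-coding genes. Only 68 of the 135 symbols (50.4%) are in the RefSeq gene table, which is of assembly GRCr8, while the submitters' processing notes name mRatBN7.2. The check is therefore void for the 135 as a whole and describes those 68. By their RefSeq spans, 38 of the 68 (55.9%) lie wholly inside a protein-coding gene. Of these 38, 34 were higher in the NONO IP and none lower, where 17% and 11.2% of all tested genes were. All 38 had under 10 input reads and so needed NONO IP reads to be included. With so few, 100% (no input read), 36.4% (1 to 3) and 11.9% (4 to 9) of all tested genes were higher. Of the other 30 placed genes 16 were higher, and of the 67 without a RefSeq symbol 51 were higher and 4 lower, so 4 of the 5 lower genes could not be placed at all. The counted length of 10 of the 68, among them 8 of the 38, exceeds the RefSeq span, so for these the counted gene model is not the RefSeq one. Of lncRNA rows under 10 reads with a RefSeq symbol, 196 of 705 (27.8%) lie wholly inside a protein-coding gene. Of all 10879 lncRNA genes in RefSeq, 24.3% do. LOC100912167 is now typed as protein-coding there. The RefSeq table gives no strand and the strand setting of the counts is not given in the sources used here, so reads of the lncRNA and of the introns around it cannot be told apart.

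The surrounding genes did not all move with the lncRNA. Of the 38, 34 lie in 33 protein-coding genes that were tested, of which 14 were higher, 3 lower and 16 did not pass, beside the same 17% and 11.2% of all tested genes. For 29 of the 34 the log2 change of the lncRNA, taken with 3 input reads where it had none, was above that of the gene around it. For 5 it was below. The floor of 3 leaves out the counting error of the NONO IP reads. For LOC102548944 inside Xkr6, counted among the 29, the values were as close as 3.19 and 3.08. The medians were 2.65 for the lncRNA genes and 0.83 for the surrounding genes. The difference within pairs was not tested. It rests on lncRNA genes that all needed NONO IP reads to be included, and 17 of the 34 had no input read.

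LOC120095186 and LOC120095187, on chromosome 10, both lie inside Mrc2, which encodes an endocytic receptor for collagen. They had 0 and 1 against 47 and 30 reads and 1 and 0 against 25 and 22 reads. Mrc2 itself, at 83 and 90 reads against 67 and 62, fell (log2 fold change −0.86, SE 0.17, edgeR adjusted p = 0.00186). LOC102552122 lies by its RefSeq span of 12574 bases, shorter than its counted 20701, inside Sh3pxd2a, a scaffold gene of podosomes, on chromosome 1, and rose from 1 and 0 to 43 and 42 reads (5.70, SE 0.61). Sh3pxd2a, with 87 and 92 against 161 and 142 reads, did not pass (0.32, SE 0.14, adjusted p = 0.116).

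In Sh3pxd2b, the related scaffold gene, both rose. LOC120095060, on chromosome 10, went from 1 and 0 to 30 and 27 reads, and Sh3pxd2b from 21 and 20 to 62 and 69 (1.23, SE 0.24, edgeR adjusted p = 0.00161). LOC120093613 lies inside Hmga2, which encodes an architectural chromatin protein, and had 3 and 1 against 33 and 26 reads. Its change, 3.38, was close to the 2.68 (SE 0.36) of Hmga2. LOC120101103 lies inside the adhesion receptor gene Adgrl2, with a log2 fold change of 3.37 against 1.58 (SE 0.14). LOC102555037 lies inside the transcription factor gene Foxp1, with 3.88 against 2.19 (SE 0.20). LOC120103027 and LOC120097421 lie inside Efhd2 and Galnt7. Neither of these 2 surrounding genes passed (−0.91, SE 0.42 and 2.25, SE 0.94). The pairs other than those of genes named above for their own values were chosen after their values were seen.

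**Figure D5:**
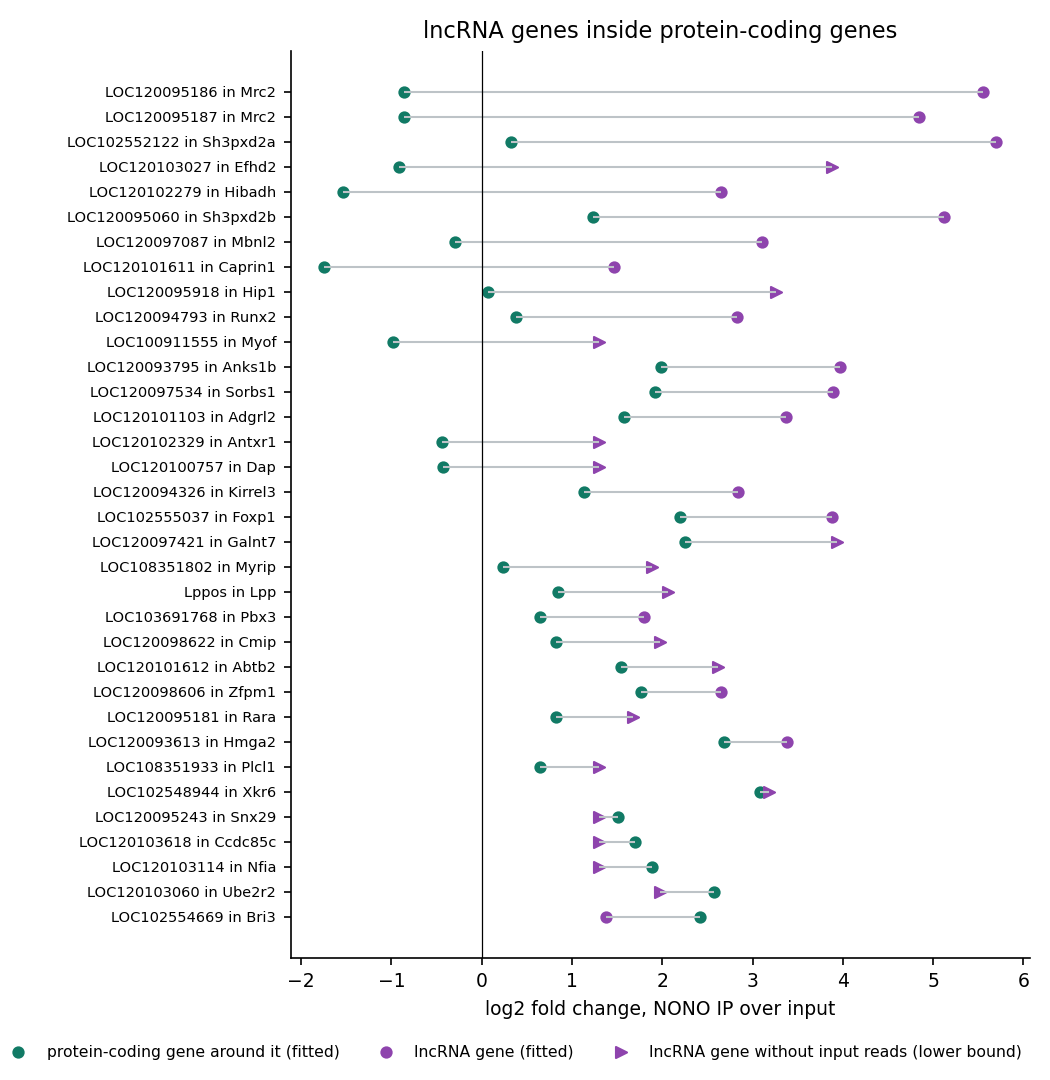
Log2 fold change of NONO IP over input for 34 lncRNA genes (purple) that lie inside a tested protein-coding gene in RefSeq (assembly GRCr8) and for that surrounding gene (green). Triangles are lncRNA genes with no input read, placed as if they had 3, without the counting error of their NONO IP reads. The lncRNA gene lies to the right of its surrounding gene in 29 of the 34 pairs.

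Other loci carry small RNA genes. Of the 68, 8 contain at least 1 microRNA gene within their RefSeq span, and 3 of these 8 were higher. Those 3 had 1, 0 and 0 input reads, and with so few 36.4% (1 to 3 reads) and 100% (none) of all tested genes were higher. LOC120097935, on chromosome 17, spans let-7 genes (Mirlet7a1, Mirlet7f-1 and Mirlet7d) and had 1 input read and 21 NONO IP reads (log2 fold change 3.70). LOC120102934, on chromosome 5, spans Mir101a and had no input read and 19 NONO IP reads. LOC102551574, on chromosome 7, spans Mir30b and Mir30d and had none against 13.

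The other 5 microRNA loci did not pass. LOC103692514 spans Mir34a, with 3 input and 17 NONO IP reads (1.99). LOC103693508 spans Mir99a, Mirlet7c1 and Mir125b2, with 2 and 14 (2.25). LOC102555254 spans a cluster of microRNA and small nucleolar RNA genes on chromosome 6, and Lnc215 spans Mir100, Mirlet7a-2 and Mir125b1. LOC102550366, on chromosome X, spans Mir322, Mir351 and Mir503. Its reads were 2 and 0 against 0 and 8, so 1 library held all of its NONO IP reads. LOC120098116, on chromosome 18, spans the Cajal body RNA genes Scarna17 and Scarna18 and did not pass (1.37, SE 0.91, edgeR adjusted p = 0.288). These loci were listed by what they contain in RefSeq, after the values were seen.

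The read limit cut through a continuous range. Just inside it, 14 lncRNA genes had exactly 10 reads, 10 input and 130 NONO IP reads in all. Just outside, 21 had exactly 9 reads, with 23 input and 166 NONO IP reads.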

How the data were processed

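The 4 libraries of RIP-seq RNA from cultured rat cardiac cells fall into 2 groups by title. Per the labels' protocols, polyadenylated RNA was captured and libraries were made with a stranded kit. The authors' counts are whole numbers of reads for each gene; the deposited RPKM values, named so per the file headers, divide them by gene length and a library total, as the values show. HISAT2, HOMER and mRatBN7.2 are named, with no role, per the submitters' processing notes. What counted the reads, with which strand setting and annotation, is not given in the sources used here, so genes that overlap or share sequence are uncertain.

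Lengths came from counts divided by RPKM, with library constants from 461 genes of at least 30 counts in every library, turned into bases on 59 short noncoding RNA genes of at least 20 reads, all within 1% of their RefSeq length. Calls come from the quasi-likelihood test of edgeR (4.0.16, under R 4.3.3) with TMM scaling on the 6401 genes with at least 10 reads, which hold 97.6% of counts, and Benjamini-Hochberg adjustment over all of them at 0.05. TMM gave 0.898 and 0.915 to the inputs, against 1.09 and 1.12 to the NONO IP, and the common dispersion was 0.00557. SE is the log2 fold change over the root of the F statistic. Ratios have exact conditional 95% intervals. A group without reads was set to 3 counts, which leaves out the counting error of the other group. Reads carry no molecular identifiers, so the intervals cover counting error only. Replicates differed by a chi-square of 1.12 per degree of freedom in the inputs and 1.42 in the NONO IP and were kept as 2 per group.

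Alternatives were DESeq2 size factors, library totals, filterByExpr, no filter, at least 30 reads, the DESeq2 Wald test (1.42.0), limma-voom and limma (3.58.1) on log2(RPKM + 1) and log2(RPKM + 0.1), a block for the replicate number, a length offset by loess (span 0.5) with or without that block, and leaving out each library. Named were the members with a gene name, the 15 with the most reads, the 10 with the most input reads, and in each direction up to 12 called members with the largest change among those of at least 40 reads and no overlap between groups. Members and lists were chosen with earlier results of these data known. No sequence is shown, as none was used here.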

Additional observations from a re-analysis of the deposited data

Results flagged for a closer look

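The 1022 lncRNA rows under 10 reads, which were not among the genes tested in the main fit, also held more reads in the NONO IP. Their reads were 149 and 140 for the inputs, against 999 and 994 for the NONO IP, or 0.0592% ± 0.000761 and 0.367% ± 0.0134 of gene counts (SD, n = 2), and were looked at again because this signal in data outside the main measurement lies above that of the inputs. With 2 libraries per group the gap was not tested. Genes of all types were also detected in larger number in the NONO IP, 10610 and 10627 against 9203 and 9124 in the inputs. The share held by other genes under 10 reads was not worked out, so the gap cannot be read as particular to lncRNAs.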

How the results depend on the processing

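Of 471 log2 fold changes of the 30 genes named by rule under 16 alternatives, 471 kept their sign and 57 lost their call, 22 of them with the replicate block. The number of higher lncRNA genes was 101 and moved to 53 (of 57 tested) with filterByExpr, 48 (of 53) with at least 30 reads, 47 with the DESeq2 Wald test and 67 on log2(RPKM + 0.1). The first 2 test fewer genes, and for the others the cause was not tested. Over all genes 29.8%, 26.7%, 7.12% and 5.14% were higher in these fits, in the same order, against 17% in the main fit. The number of higher lncRNA genes was 98 with DESeq2 size factors, 112 with library totals, 93 with limma-voom, 71 on log2(RPKM + 1) and 84 with the length offset. The shares over all genes were 15.8%, 23.8%, 14.5%, 6.30% and 11.3%. Leaving out each library gave 30 to 86 higher and 2 to 5 lower genes, and, among the 13 with at least 10 input reads, 4 to 7 higher and 2 to 5 lower. The number of lower genes was 5, and 3 with the DESeq2 Wald test, in all and among the 13. Among the 13 the number of higher genes was 3 on both RPKM scales.

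With the replicate number as a block, which leaves 1 residual degree of freedom, 6 genes were higher and 1 lower, and among the 13 it was 2 and 1; over all genes 51 were higher and 39 lower. The replicate block joined to the length offset gave 49 higher genes. Replicate 1 deviations correlated at 0.023 between groups over 6401 genes, and the labels give no shared batch. Replicates differed by a chi-square of 1.12 (inputs) and 1.42 (NONO IP) per degree of freedom, so much of these deviations is counting error. Counting error can hide a shared replicate effect, so the correlation cannot decide whether the numbers pair the libraries. The share of gene counts differed by 0.890 percentage points, by 0.689 for genes of at least 30 reads and by 1.26 without rRNA and mitochondrial genes in the total, which is smaller by construction; leaving out each library gave 0.863 to 0.916. The alternative without overlapping genes was not run, since 67 of the 135 have no RefSeq symbol. Depth limits the 122 genes with under 10 input reads.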
